A study of Homo sapiens with 4 samples.

Results

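The genes described here are 51 genes of the long arm of chromosome 15 (15q). They were followed across 4 stable derivatives of HEK293, a line established from human embryonic kidney cells. The 51 were chosen as a group by measured expression. They were picked as 15q genes lower in the AIRE2 and AIRE-D312A lines than in the control line, with AIRE1 as the line for contrast. Not all of them lay lower. Their differences from the control line are therefore given as a description, and calls among them, printed beside those of all genes, support nothing. Of the 51 genes, 49 had a probe with their name in the platform annotation, and 48 of these passed the detection filter, out of 11949 genes measured in the series. SORD and IREB2 had no named probe, and CHD2 was below the detection limit on all 12 arrays. The measured chromosome 15 genes that were not on the list numbered 351.

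The AIRE1 and AIRE2 lines each carried the autoimmune regulator AIRE, the AIRE-D312A line carried AIRE with the D312A substitution, and the NC line carried yellow fluorescent protein in its place. All 4 transgenes were driven by the immediate-early promoter of human cytomegalovirus, so NC shares the vector promoter but not AIRE. Each line is 1 stable line with 3 arrays, and nothing in the labels says that the arrays came from separate cultures. The p-values below therefore measure the spread between arrays of a line, and what a transgene did and what else sets 2 lines apart cannot be told apart. DNA copy number was not analysed here.

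AIRE is a transcription regulator of thymic epithelium that switches on genes of other tissues, so that developing T cells which recognise the body's own proteins can be removed. Its first PHD finger reads the unmodified tail of histone H3, and D312A lies in that finger. Long arm 15q holds genes of many unrelated functions, among them the imprinted region next to the centromere that is linked to the Prader-Willi and Angelman syndromes. Because 15q genes share a chromosome and not a pathway, the questions asked of them were whether the arm moved as a unit in AIRE2 and AIRE-D312A, and which genes departed from it.

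Between 15823 and 17288 of the 48701 probes were detected per array, and the mean intensity per array ranged from 245.6 to 324.3. AIRE averaged 8.90 in AIRE1, 8.51 in AIRE2, 8.31 in AIRE-D312A and 4.44 in NC on the log2 intensity scale, and it was detected on 9 of 12 arrays, none of them NC. Among embryonic kidney regulators LHX1 and EYA1 were detected on 12 arrays each and SIX2 on 8, while PAX2 was not detected on any and OSR1 on 1. Markers of blood (PTPRC, CD3E), endothelium (PECAM1, CDH5) and ALB of liver were not detected on any array. Of the fibroblast genes COL1A1 was detected on 12 arrays, DCN on 10 and LUM on 5, and APOA1 of liver on 8.

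The listed genes lay lower in both AIRE2 and AIRE-D312A by a similar, small amount, and not in AIRE1. Over the 48 measured genes the median log2 difference from NC was 0.01 in AIRE1, -0.33 in AIRE2, and -0.25 for AIRE-D312A, or 0.80 and 0.84 of the NC level in the last 2 lines. The AIRE1 median became -0.091 when arrays were centred on their medians instead of quantile-normalised. With that centring the median of all genes in AIRE1 was itself -0.07. With quantile normalisation the medians over all 11949 genes lay within 0.01 of 0. The standard deviation of the differences over all genes was then 0.34 in AIRE1 and AIRE2 and 0.27 in AIRE-D312A. Fewer cells carrying these transcripts and less RNA per cell cannot be told apart in these bulk samples. Below 0 lay 43 of 48 listed genes in AIRE2, 43 of 48 in AIRE-D312A and 23 of 48 in AIRE1.

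Arrays of the same replicate number deviated together, so the difference can also be read pair by pair. The median of the 48 genes for replicates 1, 2 and 3 was -0.24, -0.28 and -0.39 in AIRE2, and -0.18, -0.27 and -0.24 in AIRE-D312A. In AIRE1 it was 0.03, 0.00 and -0.01. The 3 pairs of AIRE2 and of AIRE-D312A thus all lay below those of AIRE1. In all 3 pairs 36 of the 48 genes were lower in AIRE2, 34 in AIRE-D312A and 12 in AIRE1, against 2980, 2704 and 3070 of the 11550 genes outside chromosome 15.

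The standard error of a difference was 0.13 at the median gene, with a range of 0.08 to 0.31. By limma across all genes, with Benjamini-Hochberg adjustment, 12 listed genes were called lower in AIRE2 than in NC at an adjusted p under 0.05, with 3.52% of all genes called lower. In AIRE-D312A 7 listed genes were called lower, with 1.32% of all genes called lower. In AIRE1 3 listed genes were called lower, with 3.06% of all genes called lower. With the replicate number as a block these counts were 29 in AIRE2 (12.5% of all genes), 22 in AIRE-D312A (7.74%) and 5 in AIRE1 (10.2%). Nothing is read from these counts, since the same differences chose the genes. Called higher were 2 listed genes in AIRE1, ACTC1 and MTHFS (5.21% of all genes), 1 in AIRE2, ACTC1 (5.93%), and 0 in AIRE-D312A (2.64%). With the replicate block these were 3 in AIRE1, with RAB27A added (12.6% of all genes), 2 in AIRE2, with MTHFS added (14.2%), and 0 in AIRE-D312A (8.72%). ACTC1 was not above background on any NC array, so its calls against NC carry no size.

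**Figure D1:**
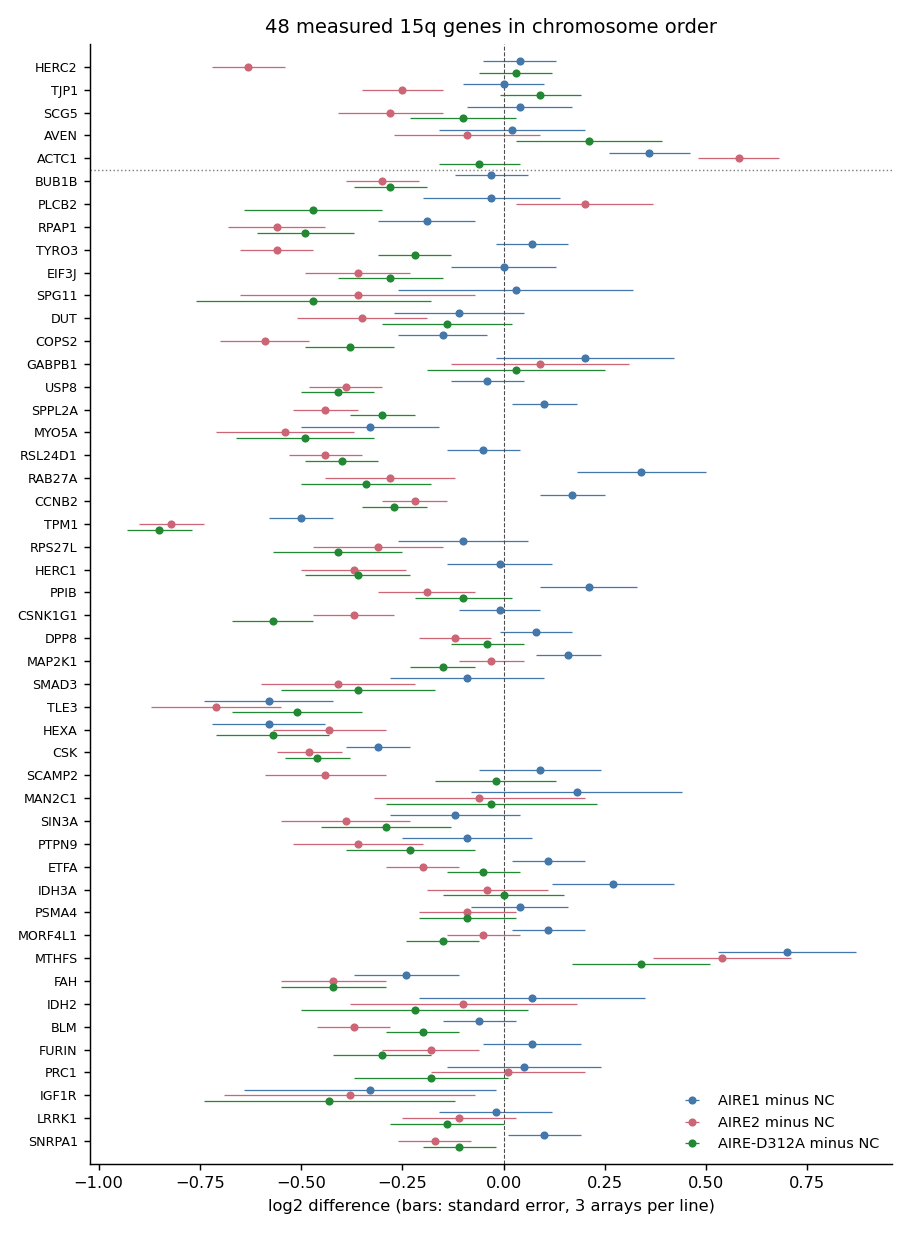
Log2 difference from NC (x axis) of the 48 measured genes in chromosome order from the centromere (y axis, top to bottom), in AIRE1, AIRE2 and AIRE-D312A. Points are fitted differences and bars standard errors (3 arrays per line). Above the dotted line, HERC2, TJP1, SCG5 and AVEN lie lower in AIRE2 than in AIRE-D312A. Below it the AIRE2 and AIRE-D312A points of most genes lie near each other, to the left of 0.

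The rest of the chromosome was lower too. The 351 measured chromosome 15 genes that were not listed had medians of 0.03 in AIRE1, -0.24 in AIRE2, and -0.21 for AIRE-D312A against NC. Of these genes 83.5% lay below 0 in AIRE2 and 78.3% in AIRE-D312A, against 50.2% and 49.3% of all genes tested. Called lower were 60 of them in AIRE2 (17.1%, against 3.52% of all genes) and 32 in AIRE-D312A (9.12%, against 1.32%). The replicate block raised calls over all genes too. With it these counts became 159 (45.3%, against 12.5% of all genes) and 122 (34.8%, against 7.74%). With AIRE2 replicate 1 or AIRE-D312A replicate 1 left out they were 35 in AIRE2 and 10 in AIRE-D312A. The medians were -0.121 in AIRE2 and -0.095 in AIRE-D312A without the detection filter. The listed genes, chosen as a group for being low, had been taken out of this set, though not each of them was low.

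**Figure D2:**
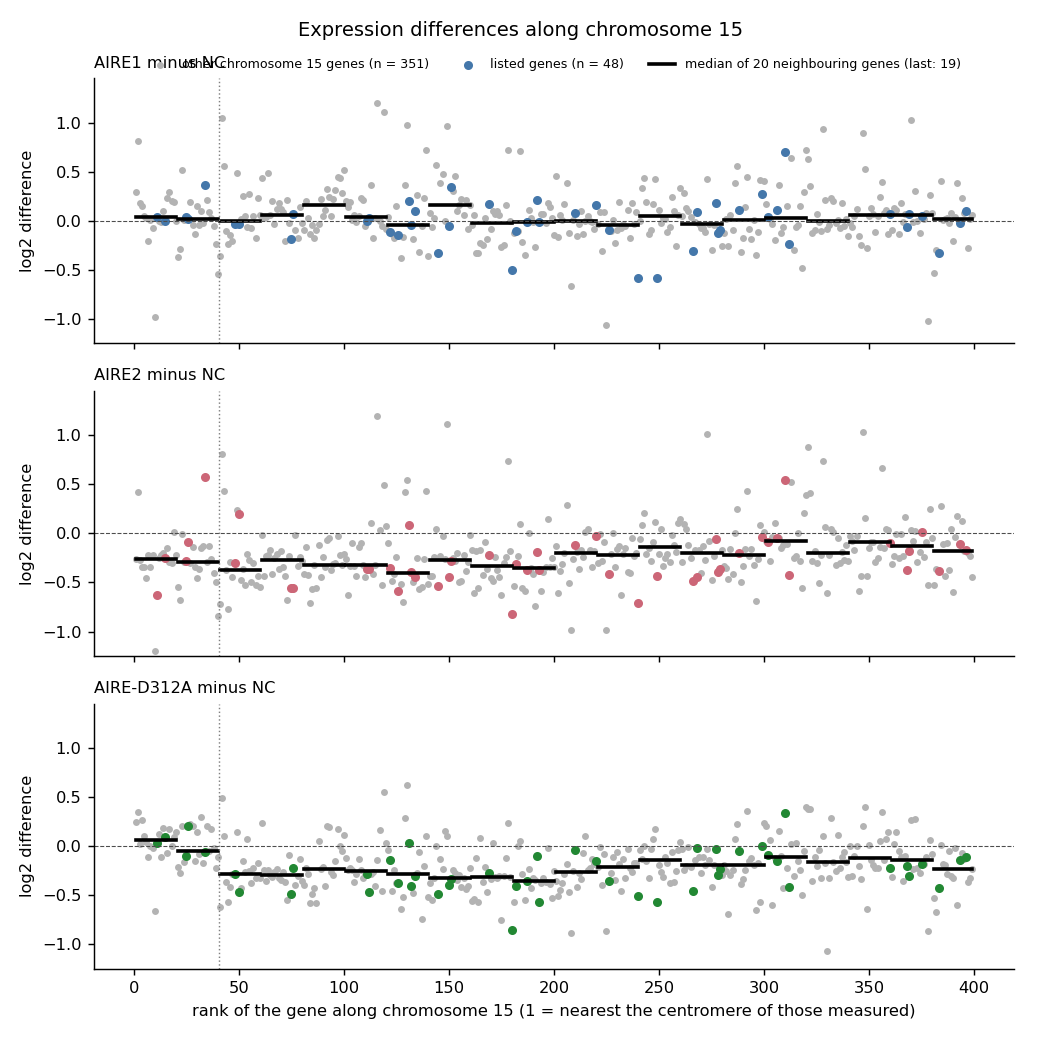
Log2 difference from NC (y axis) of all 399 measured chromosome 15 genes by their rank along the chromosome (x axis), in AIRE1, AIRE2 and AIRE-D312A from top to bottom. Coloured points are the 48 listed genes, grey points the 351 others, and black bars the medians of consecutive 20 genes (19 in the last). Values beyond 1.2 are drawn at 1.2. In AIRE2 all 20 medians lie below 0, and in AIRE-D312A the first 2, left of the dotted line, lie at 0.06 and -0.05.

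The profile along the chromosome was read in consecutive bins of 20 measured genes, from the centromere. In AIRE2 the median was below 0 in each of the 20 bins, from -0.40 to -0.08. In AIRE1 the 20 medians lay between -0.04 and 0.16. In AIRE-D312A the first 2 bins, 40 genes from HERC2P2 to MEIS2, had medians of 0.06 and -0.05, and the third bin, which starts with SPRED1, had -0.28. The remaining bins of AIRE-D312A lay between -0.36 and -0.11. The lower stretch thus covered all measured bins in AIRE2, and in AIRE-D312A it began at the third bin.

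The comparison of AIRE2 with AIRE-D312A was not itself used to choose the genes. It reuses the AIRE2 and AIRE-D312A arrays on which they were chosen, so calls of listed genes in it are not free of that choice. The comparison shows where the lines part. The medians of AIRE2 minus AIRE-D312A were -0.35 and -0.32 in the first 2 bins and lay between -0.14 and 0.05 in the other 18. Over the 40 genes of the first 2 bins the median for replicates 1, 2 and 3 was -0.35, -0.29 and -0.33, and 37 of the 40 genes lay below 0. Over the 359 genes beyond them it was 0.00, 0.01 and -0.03, and 200 of 359 lay below 0. This division was drawn after the profile had been seen and is a description of these lines. By limma 4 of the 40 genes were called lower in AIRE2 than in AIRE-D312A (0.879% of all genes were called lower), and 1 of the 359 others, ELL3. With the replicate block 24 of the 40 and 15 of the 359 were called lower (7.50% of all genes). With AIRE2 replicate 1 or 3 or AIRE-D312A replicate 2 or 3 left out the count among the 40 was 1.

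**Figure D3:**
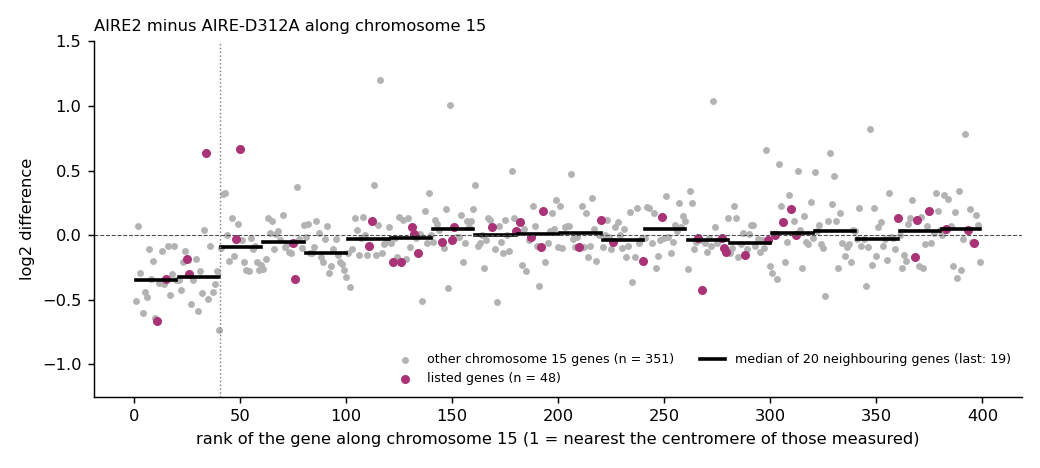
Log2 difference of AIRE2 minus AIRE-D312A (y axis) of the 399 measured chromosome 15 genes by rank along the chromosome (x axis). Coloured points are the 48 listed genes, grey points the 351 others, and black bars the medians of 20 neighbouring genes; values beyond 1.2 are drawn at 1.2. The bars stand at -0.35 and -0.32 left of the dotted line and between -0.14 and 0.05 right of it.

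Of the listed genes, 5 lie in the stretch where the 2 lines differ: HERC2, TJP1, SCG5, AVEN and ACTC1. HERC2, a very large ubiquitin ligase of the DNA damage response, had 8.37, 8.47 and 8.43 log2 units in AIRE2, against 9.10, 9.11 and 9.05 in AIRE-D312A. In AIRE1 it had 9.15, 8.98 and 9.14, and in NC 9.07, 9.16 and 8.93. The AIRE2 arrays lay below all 9 others, and the AIRE-D312A arrays overlapped NC. AIRE2 minus AIRE-D312A was -0.66 ± 0.09 (SE, n = 3 arrays per line; limma adjusted p = 0.00342, and 0.000494 with the replicate block). The HERC2 pseudogene HERC2P2, which shares much of its sequence, differed by -0.51 (limma adjusted p = 0.116, and 0.0203 with the replicate block), and signal from such copies cannot be told apart on an array.

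TJP1, which encodes the tight junction scaffold ZO-1, had 8.75, 9.05 and 9.01 in AIRE2, against 9.21, 9.35 and 9.28 in AIRE-D312A. Its difference of -0.34 had a limma adjusted p of 0.124, and 0.0124 with the replicate block. SCG5, which encodes a chaperone of a prohormone convertase, differed by -0.18 between AIRE2 and AIRE-D312A (limma adjusted p = 0.589). AVEN, an apoptosis inhibitor, differed by -0.30 (limma adjusted p = 0.482). These 4 genes lay lower in AIRE2 than in AIRE-D312A, and of them HERC2 passed the test in the fit without the block.

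Genes of the same stretch that were not on the list lay the same way. The other genes called lower there were EMC7 at -0.53 and EMC4 at -0.59, both subunits of the endoplasmic reticulum membrane complex, and MEIS2 at -0.73, a homeodomain transcription factor. They were named after their values were seen. MEIS2 and SPRED1 are the neighbours on either side of the step. MEIS2 differed from NC by -0.84 in AIRE2 and -0.11 in AIRE-D312A, and SPRED1, an inhibitor of Ras signalling, by -0.72 and -0.62. MEIS2 was also low in AIRE1, at -0.54 against NC, and its AIRE2 minus AIRE1 difference was -0.30. AIRE2 minus AIRE-D312A was -0.10 at SPRED1 (limma adjusted p = 0.889).

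Of the 16 genes listed for the imprinted region and its neighbours, 15 had a named probe and 7 were measured, none of them among the 51. Their median was -0.34 in AIRE2 and 0.02 in AIRE-D312A against NC, and AIRE2 minus AIRE-D312A was -0.44, with a range of -0.64 to -0.20. UBE3A, the ubiquitin ligase lost in Angelman syndrome, was -0.34 in AIRE2 and 0.00 in AIRE-D312A. None of the 7 was called between AIRE2 and AIRE-D312A by limma in the fit without the block (0.879% of all genes lower and 1.34% higher). With the block 5 were called lower (7.5% of all genes): NIPA2, CYFIP1, TUBGCP5, UBE3A and OCA2. The imprinted genes NDN, MAGEL2, MKRN3 and SNRPN did not pass the detection filter.

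Beyond the step the differences were larger nearer the centromere. In the 160 genes from SPRED1 to PLEKHO2 the median was -0.32 in AIRE2 and -0.29 in AIRE-D312A. In the 199 genes from ANKDD1A to the end of the chromosome it was -0.17 in AIRE2 and -0.18 in AIRE-D312A. The listed genes showed the same order: the 20 in the first of these stretches had medians of -0.37 in AIRE2 and -0.37 in AIRE-D312A, and the 23 in the second had -0.18 in AIRE2 and -0.18 in AIRE-D312A. This gradient was noticed in the profile and not tested. By brightness, the dimmer 24 listed genes, with a median of 8.16 log2 units in NC, had medians of -0.37 in AIRE2 and -0.32 in AIRE-D312A, and the brighter 24, at 10.34, had -0.28 and -0.21.

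The same median was taken for each chromosome. In AIRE-D312A the median of chromosome 15 was -0.22, and the other 22 chromosomes lay between -0.03 and 0.15, the highest being chromosome 5. In AIRE2 it was -0.24, beside -0.27 for chromosome 7 and -0.18 for chromosome 22, while the remaining chromosomes lay between -0.04 and 0.07. In AIRE1 all 23 chromosomes lay between -0.04 and 0.04. Chromosome 15 was the chromosome with a median below -0.1 in both AIRE2 and AIRE-D312A.

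**Figure D4:**
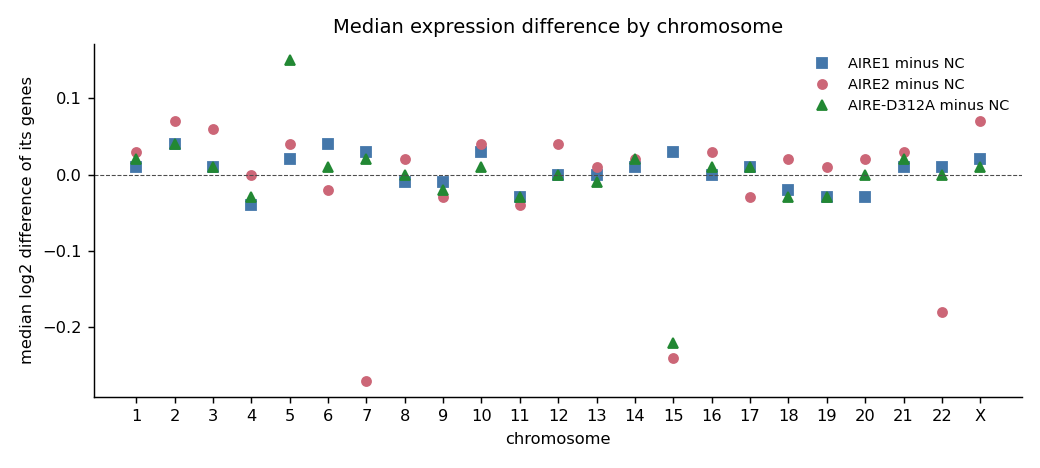
Median log2 difference from NC (y axis) of the measured genes of each chromosome (x axis) in AIRE1, AIRE2 and AIRE-D312A. Chromosome 15 lies at -0.24 in AIRE2 and -0.22 in AIRE-D312A, chromosomes 7 and 22 lie low in AIRE2, at -0.27 and -0.18, and chromosome 5 lies at 0.15 in AIRE-D312A.

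The listed genes of cell division and DNA upkeep had medians of -0.30 in AIRE2 and -0.20 in AIRE-D312A against NC. BUB1B, the spindle checkpoint kinase BubR1, lay nearest of all members to the medians. It had 9.65, 9.72 and 9.67 in AIRE2, 9.75, 9.56 and 9.81 in AIRE-D312A and 9.89, 9.97 and 10.09 in NC, so that every array of both lines lay below the NC arrays. Its differences were -0.30 in AIRE2 and -0.28 in AIRE-D312A, and -0.03 in AIRE1. CCNB2, cyclin B2 of mitotic entry, differed by -0.22 in AIRE2 and -0.27 in AIRE-D312A. BLM, the helicase that dissolves recombination intermediates, differed by -0.37 and -0.20. DUT, which clears dUTP ahead of DNA synthesis, differed by -0.35 and -0.14. PRC1, which bundles microtubules in the spindle midzone, stood apart at 0.01 in AIRE2 and lay at -0.18 in AIRE-D312A.

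The 9 signalling genes had medians of -0.37 in AIRE2 and -0.36 in AIRE-D312A. CSK, the kinase that restrains Src kinases, differed by -0.48 in AIRE2 and -0.46 in AIRE-D312A, and also by -0.31 in AIRE1. TYRO3, a receptor tyrosine kinase, differed by -0.56 in AIRE2 and -0.22 in AIRE-D312A. CSNK1G1, a membrane-bound casein kinase, differed by -0.37 and -0.57. SMAD3, a transducer of TGF-beta signals, differed by -0.41 and -0.36. IGF1R, the receptor for insulin-like growth factor 1, differed by -0.38 and -0.43 with a standard error of 0.31. PTPN9, a tyrosine phosphatase, lay near the medians: it had 6.91, 6.69 and 6.86 in AIRE2, 6.92, 6.74 and 7.21 in AIRE-D312A and 7.01, 7.11 and 7.44 in NC, for differences of -0.36 and -0.23. Its AIRE2 arrays lay below the NC arrays and its AIRE-D312A arrays overlapped them. LRRK1, a kinase of the LRRK family, differed by -0.11 and -0.14, and MAP2K1, the ERK-activating kinase MEK1, by -0.03 and -0.15. PLCB2, a phospholipase C that acts downstream of G proteins, parted between the lines and is described with the departing genes.

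The 7 measured metabolic enzymes were the group nearest to 0, with medians of -0.10 in AIRE2 and -0.05 in AIRE-D312A. All 7 lie in the stretch from ANKDD1A to the end of the chromosome. The 23 listed genes of that stretch had medians of -0.18 in both AIRE2 and AIRE-D312A, so function and position cannot be told apart here. HEXA, a subunit of lysosomal hexosaminidase, differed by -0.43 in AIRE2 and -0.57 in AIRE-D312A, and by -0.58 in AIRE1. FAH, the last enzyme of tyrosine breakdown, differed by -0.42 in both AIRE2 and AIRE-D312A. ETFA, an electron carrier of mitochondrial fatty acid oxidation, differed by -0.20 and -0.05. IDH2, a mitochondrial isocitrate dehydrogenase, differed by -0.10 and -0.22, with a standard error of 0.28. IDH3A, a subunit of the citric acid cycle isocitrate dehydrogenase, differed by -0.04 and 0.00. MAN2C1, a cytosolic mannosidase, differed by -0.06 and -0.03. These enzymes did not share a size of difference, and MTHFS lay above 0 in all 3 lines.

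The 5 genes of ribosome, splicing, translation and transcription machinery all lay below 0 in both lines, with medians of -0.36 in AIRE2 and -0.40 in AIRE-D312A. RPAP1, a protein associated with RNA polymerase II, differed by -0.56 in AIRE2 and -0.49 in AIRE-D312A. RSL24D1, a factor of large ribosomal subunit assembly, differed by -0.44 and -0.40. EIF3J, a subunit of translation initiation factor eIF3, lay near the medians, with 8.78, 9.28 and 9.03 in AIRE2, 9.12, 9.20 and 9.01 in AIRE-D312A and 9.22, 9.53 and 9.43 in NC. Its differences were -0.36 and -0.28, and single arrays of the lines overlapped. RPS27L, a paralogue of a small-subunit ribosomal protein, differed by -0.31 and -0.41, and SNRPA1, a protein of the U2 spliceosomal particle, by -0.17 and -0.11.

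The 7 genes of ubiquitin, proteasome and protein folding had medians of -0.37 in AIRE2 and -0.10 in AIRE-D312A. HERC2 widened that gap, with -0.63 in AIRE2 and 0.03 in AIRE-D312A. COPS2, a subunit of the COP9 signalosome that trims NEDD8 from cullins, differed by -0.59 and -0.38. USP8, a deubiquitinase of endosomes, differed by -0.39 and -0.41, and HERC1, a giant ubiquitin ligase related to HERC2, by -0.37 and -0.36. PPIB, a prolyl isomerase of the endoplasmic reticulum, differed by -0.19 and -0.10. DPP8, a cytosolic dipeptidyl peptidase, differed by -0.12 and -0.04, and PSMA4, a ring subunit of the 20S proteasome, by -0.09 in both AIRE2 and AIRE-D312A.

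Of the 4 measured genes of chromatin and transcription factors, 2 lay well below 0. TLE3, a Groucho-type corepressor, differed by -0.71 in AIRE2 and -0.51 in AIRE-D312A, and by -0.58 in AIRE1. SIN3A, the scaffold of a histone deacetylase complex, differed by -0.39 and -0.29. MORF4L1, a chromodomain protein of acetyltransferase complexes, differed by -0.05 and -0.15. GABPB1, the beta subunit of the GA-binding protein, was 0.09 in AIRE2 and 0.03 in AIRE-D312A, with a standard error of 0.22. Of the listed genes 5 lay above 0 in AIRE2: GABPB1, PRC1, PLCB2, MTHFS and ACTC1.

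The 11 genes of cytoskeleton, junctions, trafficking and secretion had medians of -0.28 in AIRE2 and -0.30 in AIRE-D312A. MYO5A, a myosin that carries organelles, differed by -0.54 in AIRE2 and -0.49 in AIRE-D312A, and by -0.33 in AIRE1. SPPL2A, an intramembrane protease, differed by -0.44 and -0.30. SPG11, a lysosome-linked protein mutated in spastic paraplegia, differed by -0.36 and -0.47, with a standard error of 0.29. RAB27A, a GTPase of secretory vesicles, differed by -0.28 and -0.34, and by 0.34 in AIRE1. SCAMP2, a membrane protein of recycling vesicles, differed by -0.44 in AIRE2 and -0.02 in AIRE-D312A. FURIN, a proprotein convertase, differed by -0.18 and -0.30. TJP1 differed by -0.25 and 0.09, SCG5 by -0.28 and -0.10, and AVEN by -0.09 and 0.21.

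A member was said to depart from the arm where its difference from NC lay over 0.5 log2 from the median of the members. In AIRE2 35 of the 48 genes lay within 0.25 of the median and in AIRE-D312A 38. By fitted difference 3 genes lay over 0.5 away in AIRE2, ACTC1, MTHFS and PLCB2, and 2 in AIRE-D312A, MTHFS and TPM1. For ACTC1, which was not above background in NC, only a bound on the difference is known, and it does not establish a departure of that size. MTHFS was the member that departed the same way in both lines, and TPM1 was the next, 0.49 below the median in AIRE2 and 0.60 below it in AIRE-D312A. With NC replicate 3 left out TPM1 departed in both lines and MTHFS did not. With AIRE2 replicate 1, AIRE2 replicate 2 or NC replicate 2 left out both genes did. These departures are measured from NC and set against the median of all members, so position along the arm enters them. The bin that holds MTHFS had medians of -0.08 in AIRE2 and -0.11 in AIRE-D312A, nearer to MTHFS than the member medians. The bin that holds TPM1 had -0.33 and -0.31. Against AIRE1, MTHFS differed by -0.15 in AIRE2 and -0.36 in AIRE-D312A, and TPM1 by -0.33 and -0.35. The member medians against AIRE1 were -0.27 and -0.24, so neither gene lay over 0.5 from them.

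MTHFS, which converts the storage folate 5-formyltetrahydrofolate back into active folate, had 9.92, 10.16 and 10.00 in AIRE2 and 9.94, 9.84 and 9.69 in AIRE-D312A. In AIRE1 it had 10.23, 10.25 and 10.05, and in NC 9.44, 9.90 and 9.11. The NC arrays spread most, and the AIRE-D312A arrays overlapped them. The differences were 0.70 in AIRE1, 0.54 in AIRE2, and 0.34 for AIRE-D312A, each with a standard error of 0.17.

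TPM1, the actin-binding tropomyosin 1, had 8.96, 9.01 and 8.96 in AIRE2 and 8.95, 8.97 and 8.92 in AIRE-D312A. In AIRE1 it had 9.37, 9.32 and 9.20, and in NC 9.83, 9.76 and 9.81. The 3 groups of levels were separate, with NC highest, AIRE1 between, and AIRE2 and AIRE-D312A together at the bottom. The differences were -0.50 in AIRE1, -0.82 in AIRE2, and -0.85 for AIRE-D312A, with a standard error of 0.08.

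ACTC1, cardiac alpha-actin, was among the dimmest members. It had 5.12, 4.98 and 4.97 in AIRE2, against 4.30, 4.36 and 4.51 in AIRE-D312A, and 4.84, 4.69 and 4.90 in AIRE1, against 4.47, 4.55 and 4.32 in NC. It was detected on 3 of 3 AIRE2 arrays and 1 of 3 AIRE1 arrays, and not well above background on any AIRE-D312A or NC array. AIRE2 was at least 1.10-fold higher than AIRE-D312A, measured against the detection limit, and at least 1.06-fold higher than NC. ACTC1 passed the detection filter through AIRE2 alone, where it was high, so no p-value is given for it. Its second probe was not detected on any array. HERC2 was the member called lower in AIRE2 than in AIRE-D312A (0.879% of all genes), and ACTC1, through that filter, was the member called higher (1.34% of all genes). With the replicate block 4 members, or 8.33% of them, were called lower (7.50% of all genes): HERC2, TJP1, TYRO3 and SCAMP2. PLCB2 was also called higher with the block (8.15% of all genes). These shares of members called with the block lie near the share of all genes or below it.

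PLCB2 had 5.72, 5.24 and 5.18 in AIRE2, against 4.87, 4.73 and 4.52 in AIRE-D312A. In AIRE1 it had 5.31, 4.94 and 5.18, and in NC 5.15, 5.43 and 4.95. It was detected on all arrays of AIRE1 and AIRE2 and 2 of 3 NC arrays, and not well above background on any AIRE-D312A array. AIRE2 was at least 1.41-fold higher than AIRE-D312A (limma adjusted p = 0.0716, and 0.00641 with the replicate block). The arrays of the 2 lines did not overlap.

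The promoters of TPM1 and MTHFS are shown because these members departed from the arm in their differences from NC. That of ACTC1 is shown because it was detected on all AIRE2 arrays and not on any AIRE-D312A or NC array. Of the 51 genes 46 had a promoter in the RefSeq promoter table (GRCh38.p14). The 150 bases before the transcription start are printed 5′ to 3′ on the gene's strand, with motif matches on either strand in capitals. The windows are chr15:34795550-34795699 on the minus strand for ACTC1, chr15:63048339-63048488 on the plus strand for TPM1 and chr15:79897015-79897164 on the minus strand for MTHFS. The motifs searched were GGGCGG, the motif CCAAT, the motif TATAA and the CArG box, which serum response factor binds.
ACTC1: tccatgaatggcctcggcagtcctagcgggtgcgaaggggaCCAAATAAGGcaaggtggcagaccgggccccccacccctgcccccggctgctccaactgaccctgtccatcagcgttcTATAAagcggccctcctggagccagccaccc
TPM1: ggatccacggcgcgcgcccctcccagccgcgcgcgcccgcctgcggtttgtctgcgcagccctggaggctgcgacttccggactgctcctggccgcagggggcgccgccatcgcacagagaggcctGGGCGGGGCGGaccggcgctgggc
MTHFS: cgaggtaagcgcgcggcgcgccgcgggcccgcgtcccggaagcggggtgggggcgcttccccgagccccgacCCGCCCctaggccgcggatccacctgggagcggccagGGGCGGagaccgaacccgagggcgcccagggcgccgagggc

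The ACTC1 window, for the first of its 3 starts in the table, holds 1 CArG box 109 bases before the start and TATAA 31 bases before it. CArG boxes are the serum response factor sites known from muscle actin promoters. Of 34762 promoter windows of this length, 0.774% hold a CArG box and 12.2% TATAA. The TPM1 window holds 2 overlapping GGGCGG matches, and the MTHFS window 1 on each strand; 36.8% of windows hold that motif. CCAAT, which 23.5% of windows hold, was in none of the 3. These matches describe the letters of the windows.

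Several listed genes encode subunits of complexes whose other parts lie on other chromosomes. The 11 genes compared were PSMA4, COPS2, EIF3J, IDH3A, ETFA, SIN3A, BUB1B, CCNB2, BLM, SNRPA1 and GABPB1, with medians of -0.22 in AIRE2 and -0.20 in AIRE-D312A. The 72 measured partners had medians of -0.02 in AIRE2, 0.03 in AIRE-D312A and 0.00 in AIRE1, near those of all genes. The 11 genes belong to the list chosen as lower in AIRE2 and AIRE-D312A. A gap between them and the partners was therefore favoured by the choice, and nothing is read from it. Of the 72, 2 were called lower in AIRE2 by limma, EIF3B and EIF3M of eIF3 (3.52% of all genes), and 0 in AIRE-D312A (1.32%). With the replicate block 10 were called lower in AIRE2 (12.5% of all genes) and 5 in AIRE-D312A (7.74%). Without the block 5.93% of all genes were called higher in AIRE2 and 2.64% in AIRE-D312A. The partners called higher in both lines were COPS8 of the COP9 signalosome, at 1.08 in AIRE2 and 0.72 in AIRE-D312A, and SF3B1 of the U2 particle, at 0.38 and 0.39. Both were also higher in AIRE1, at 0.59 and 0.39. COPS8 and SF3B1 both lie on chromosome 2, whose measured genes had medians of 0.07 in AIRE2 and 0.04 in AIRE-D312A. Whether their levels have to do with their complexes was not tested.

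The partners were also split by chromosome. The 8 partners on chromosomes 7 and 22, which lay low in AIRE2, had a median of -0.20 in AIRE2 and 0.06 in AIRE-D312A, and the 64 on the remaining chromosomes had -0.01 and 0.03. The 13 other 20S proteasome subunits had medians of -0.09 in AIRE2 and 0.10 in AIRE-D312A, against -0.09 for PSMA4 in both AIRE2 and AIRE-D312A. The 8 spindle checkpoint and cyclin B partners had medians of 0.11 and -0.01, against -0.30 and -0.28 for BUB1B. The 11 SIN3 partners had 0.00 and -0.07, against -0.39 and -0.29 for SIN3A.

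**Figure D5:**
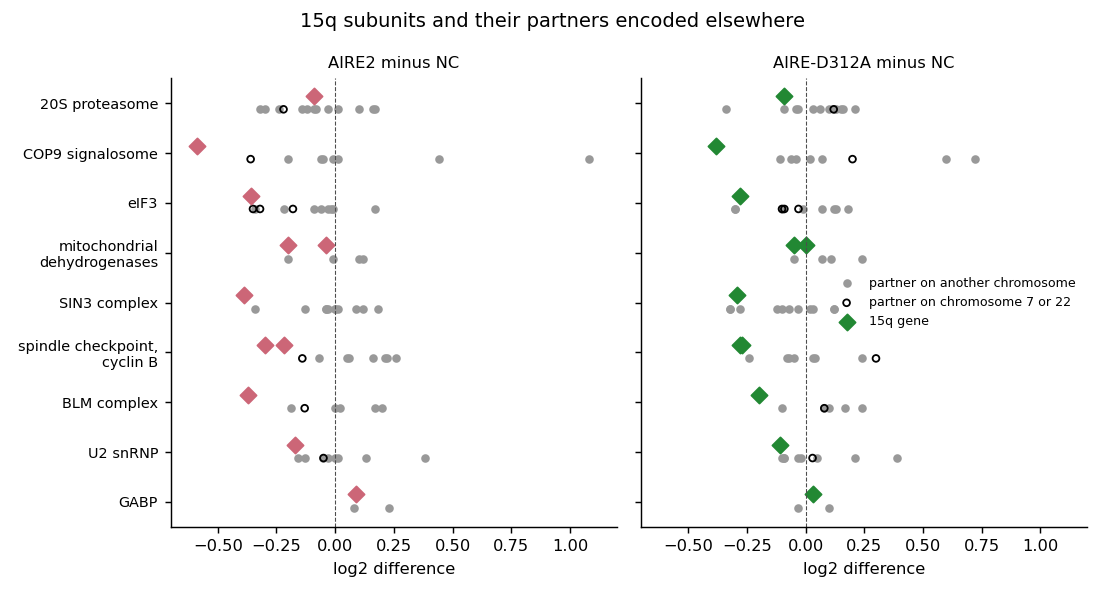
Log2 difference from NC (x axes) in AIRE2 (left) and AIRE-D312A (right) of 15q genes (diamonds) and of their partners in 9 complexes or groups (rows; grey points, and open circles for partners on chromosome 7 or 22). Most diamonds lie left of 0, with medians of -0.22 and -0.20 over the 11 15q genes, and the partners scatter around 0, with medians of -0.02 and 0.03. The 15q genes come from the list chosen as lower in these lines.

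Further probes were a check within the listed genes: 10 of them had several named probes and 5 had several that passed the filter. IGF1R gave -0.38 and -0.36 in AIRE2 from its 2 probes, and DUT gave -0.35 and -0.46. MORF4L1 gave -0.05 from its bright probe and -0.30 from a dim one, CSNK1G1 -0.37 and -0.08, and PTPN9 -0.36 and -0.09. All 5 lay below 0 with both probes in AIRE2. In AIRE-D312A the second probes gave -0.11 for IGF1R, -0.47 for DUT, -0.05 for MORF4L1, -0.18 for CSNK1G1 and 0.10 for PTPN9, whose sign thus differed from that of its brighter probe.

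Among chromosome 15 genes outside the list, the extreme differences were larger than within it, but they are the extremes of 351 genes against 48. The standard deviation over the 351 genes was 0.31 in AIRE2 and 0.25 in AIRE-D312A. Over the 48 listed genes it was 0.27 and 0.22. The 5 lowest by the mean of AIRE2 and AIRE-D312A were OCA2, a melanosomal transporter, IGDCC3, SMAD6, an inhibitor of BMP signalling, BNC1, a zinc finger protein, and ST8SIA2, a polysialyltransferase, with means of -0.98 to -0.70. OCA2, IGDCC3, SMAD6 and ST8SIA2 were also low in AIRE1, at -0.98, -0.67, -1.06 and -1.02, while BNC1 was -0.08 there. The 5 highest were RASGRP1, an activator of Ras, CPEB1, an mRNA-binding regulator of translation, COXFA4L3, ISG20, an interferon-induced exonuclease, and WDR72, with means of 0.60 to 0.65. All 5 were higher in AIRE1 as well, by a fitted 0.63 to 1.52. WDR72 was detected on 2 of 3 AIRE2 arrays and on no NC or AIRE-D312A array, so its place among the 5 rests on values near background. Against NC its sizes are bounds, at least 1.34-fold in AIRE2 and at least 1.22-fold in AIRE1. COXFA4L3, ISG20 and WDR72 were called higher in AIRE2 than in AIRE-D312A, WDR72 by at least 1.39-fold since it was not above background in AIRE-D312A, as was SCAMP5 at 1.04, chosen here after its value was seen. COXFA4L3 differed from NC by 1.39 in AIRE2 and -0.14 in AIRE-D312A, and ISG20 by 1.03 and 0.21.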

How the data were processed

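Per the file headers, each deposited array file holds the average bead intensity of 48701 probes and a detection p-value per probe. The deposited intensities were not background-subtracted or normalised between arrays. The submitters' processing notes name BeadStudio 3.1.3.0. The detection p-value column of AIRE-D312A replicate 3 equalled that of AIRE1 replicate 3 for 100% of probes and was not used: its background was predicted from its 40th percentile of intensity, which on the other 11 arrays gave the same detection call for at least 98.92% of probes.

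Intensities were corrected by normexp (offset 16), quantile-normalised and log2-transformed (limma 3.58.1, R 4.3.3). Probes were named from the platform annotation, updated through RefSeq (GRCh38.p14), which also gave gene order; no coordinates of the arrays' build were used. A gene was kept where 1 line or more had a detection p under 0.01 on each of its 3 arrays, and its brightest probe stood for it. All 12 arrays were fitted in 1 limma model with line as the term. Tables and figures were made in Python 3.11.15. The scripts were tested on simulated data.

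At equal replicate numbers the arrays' deviations from their line means correlated at 0.333 to 0.848 in every pair, and at different numbers at -0.744 to 0.529, so the numbers were taken as pairs and the fit with the replicate block is given beside results it changes. The numbers come from the array files' names.

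The 51 genes, their roles, the partner lists and the tests were chosen with earlier results of these data known. All members are named. Per-array values are given for members over 0.5 from the medians in both lines, members called between AIRE2 and AIRE-D312A and the 3 nearest the medians; per-array values of TPM1, PLCB2 and TJP1 were added after their values were seen. Outside the list, the 5 highest and 5 lowest chromosome 15 genes are named. Alternatives were median centring, offset 50, no background correction, no detection filter, the mean over probes, the replicate block, each array or all replicate 2 arrays left out, and a further table of the authors' deposited intensities, 1 per line, which equals a rescaled mean of replicates 1 and 3. Where a probe is not well above background on all arrays of a line, a fold is a bound: the brighter mean was set against the dim probe's value on each array, raised to the detection limit where it lay below.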

Additional observations from a re-analysis of the deposited data

Results flagged for a closer look

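These 10 of the 399 measured chromosome 15 genes differed between AIRE2 and AIRE-D312A, 2 lines set against the same control, by the limma test of that difference. Over all genes 0.879% were called lower and 1.34% higher in that comparison, so nothing about the chromosome is read from the number called. Of the listed genes HERC2 lay at -0.66 log2. ACTC1 had a fitted 0.64, but it was not above background in AIRE-D312A and passed the filter through AIRE2 alone, so its size is known only as at least 1.10-fold and its test is not counted as support. Of the others called lower in AIRE2, EMC7 lay at -0.53, EMC4 at -0.59 and MEIS2 at -0.73, all in the 40 genes nearest the centromere with HERC2 and ACTC1, and ELL3 at -0.40 further along. Called higher in AIRE2 were COXFA4L3 at 1.54, WDR72 at a fitted 1.01 (at least 1.39-fold, since it was not above background in AIRE-D312A), SCAMP5 at 1.04 and ISG20 at 0.82. HERC2, SCAMP5 and ISG20 stayed called under all 19 alternatives that give an adjusted p, with adjusted p-values from limma between 0.000494 and 0.023 for HERC2. MEIS2 lost its call in 12 of 19 (adjusted p from limma 0.000941 to 0.173), COXFA4L3 in 9, ELL3 in 8, EMC4 in 6, EMC7 in 4 and WDR72 in 3.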

How the results depend on the processing

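The medians of the measured members kept their sign in AIRE2 and AIRE-D312A under every alternative run. Leaving out 1 array gave -0.348 to -0.244 in AIRE2, -0.295 to -0.203 in AIRE-D312A, -0.009 to 0.025 in AIRE1 and -0.054 to -0.009 for AIRE2 minus AIRE-D312A. The AIRE1 median was -0.091 with median centring, 0.033 without all replicate 2 arrays and 0.043 in the authors' table, and AIRE2 minus AIRE-D312A was -0.057 with median centring. Other chromosome 15 genes had medians in AIRE2 of -0.274 with median centring, -0.197 with offset 50, -0.188 without background correction, -0.121 without the detection filter and -0.244 without replicate 2, with -0.254 to -0.230 over single arrays left out. In AIRE-D312A the same settings gave -0.239, -0.168, -0.162 and -0.095, and -0.229 to -0.184 over single arrays. In AIRE1 they were -0.023 with median centring, 0.015 without the filter and 0.022 to 0.053 over single arrays.

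Counts of calls moved most. With the replicate block, listed genes called lower numbered 29 in AIRE2, 22 in AIRE-D312A and 5 in AIRE1, 6 were called between AIRE2 and AIRE-D312A, and other chromosome 15 genes called lower numbered 159 and 122. Over all genes the block called 12.5% lower in AIRE2, 7.74% in AIRE-D312A and 10.2% in AIRE1. Between AIRE2 and AIRE-D312A it called 7.50% of all genes lower and 8.15% higher. The block changed no median. Single arrays left out gave 7 to 15 in AIRE2, 3 to 7 in AIRE-D312A, 1 to 4 in AIRE1 and 2 to 4 between AIRE2 and AIRE-D312A, and 35 to 74 and 10 to 37 other genes. The lowest counts came without AIRE2 replicate 3 (7 listed genes in AIRE2), without AIRE-D312A replicate 1 or 3 or NC replicate 3 (3 in AIRE-D312A), without AIRE1 replicate 1 or NC replicate 2 or 3 (1 in AIRE1), without AIRE2 replicate 1 (35 others) and without AIRE-D312A replicate 1 (10 others). Without replicate 2, 4 were called between the lines and 49 other genes lower in AIRE-D312A. Members departing in both lines numbered 2, TPM1 and MTHFS, with median centring, no filter, the mean over probes, a threshold of 0.4 or no replicate 2, and 1 to 2 over single arrays.

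Chosen after seeing the data, the median of the 40 genes nearest the centromere for AIRE2 minus AIRE-D312A was -0.265 with offset 50, -0.260 without background correction and -0.351 to -0.324 over single arrays, and for AIRE-D312A minus NC 0.014 to 0.076, with -0.008 under median centring. The 4 calls among them became 24 with the block, 12 without replicate 2 and 1 to 10 over single arrays. The cause of these moves was not tested. Signal near background limits ACTC1, PLCB2 and WDR72, whose folds are bounds.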
